A study of Homo sapiens with 12 samples.

Results

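The genes described here are 10 immune checkpoint and immune-ligand genes of A375 cells, a human melanoma line: CD274, PDCD1LG2, CD276, PVR, TNFRSF14, LGALS9, CD47, ICAM1, MICA and ULBP2. They were chosen by name from the 31585 gene loci of the RNA-seq table, and where a gene is listed at several loci the locus with the highest mean was read. All 10 were found, and 9 reached the level needed for a test, an FPKM (read fragments scaled to transcript length and to the library's total) of at least 1 in at least 3 of the 12 libraries. The exception was LGALS9. PDCD1LG2 passed only through its 3 YAP-2SA libraries, so it had to be highest there to be tested at all.

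The 4 stably transduced populations were compared with 3 libraries each, and all had received the same retroviral backbone (MSCV-IRES-Hygro) and hygromycin selection. Control cells carried the empty vector. YAP-S127A cells carried human YAP with the S127A mutation, YAP-S127A,S94A cells carried the same protein with the added S94A mutation, which blocks binding to TEAD transcription factors, and YAP-2SA cells carried YAP with S127A and S381A. The titles give YAP-2SA these last mutations, whereas another label of the same libraries and the series' design text also list S94A, and the titles were followed here. The labels place lysis 24 hours after plating, while the study's methods give a longer culture. The design text gives 3 replicates plated for each line and describes no independent transductions, so the p-values measure the spread between platings.

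Tumor cells can restrain or engage lymphocytes and macrophages through proteins on their surface. PD-L1 (CD274) and PD-L2 (PDCD1LG2) bind PD-1 on T cells and inhibit them, PVR is bound by the receptors TIGIT, CD96 and CD226, CD47 signals to SIRPA on macrophages to prevent phagocytosis, and MICA and ULBP2 are stress-induced ligands of the activating receptor NKG2D. CD274 is best known as a target of interferon-gamma signaling in melanoma. YAP is a transcriptional co-activator without a DNA-binding domain of its own, and it reaches most of its target genes through TEADs, whose core DNA motif is CATTCC.

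YAP1 itself was at 34.1, 33.0 and 172 FPKM in the libraries labelled Control, and between 130 and 187 FPKM in the 9 libraries of the YAP populations. The library labelled Control replicate 3 therefore carried YAP1 at the level of the YAP-expressing cells, against its label. Without it, the adjusted p of YAP-2SA against Control was 0.00135 to 0.0373 for CD274, PVR, ICAM1 and MICA, and 0.083 for CD47, which was then no longer under 0.05. Endogenous and vector YAP1 cannot be told apart in these values. The melanocyte lineage genes summed to between 471 and 580 FPKM in Control and between 46.8 and 57.6 FPKM in YAP-2SA, and the tested ones moved in both directions: SOX10 (263 to 6.16 FPKM), S100A1 (101 to 2.91), S100B (46.9 to 0.807) and ERBB3 (115 to 5.89) fell, and MITF rose (8.59 to 35.0 FPKM). MLANA and PMEL stayed below 1 FPKM in all 12 libraries. Of 11 leukocyte markers, MS4A1 was at 0 in all libraries and only the loci of LYZ and CD68 reached 1 FPKM. The leukocyte markers summed to between 90 and 103 FPKM in Control and between 111 and 120 FPKM in YAP-2SA, with the CD68 locus, shared with MPDU1, at 80.2 and 111 FPKM and LYZ lower at 15.9 and 2.51 FPKM. The part of either marker list in the results was not tested. In bulk RNA, a larger share of cells expressing a gene and more RNA per cell cannot be told apart.

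These 3 promoters are shown because they hold a motif of the factors named above, CD274 an interferon response element and PVR and TNFRSF14 the TEAD core. Each is the 250 bases before the transcription start in RefSeq (GRCh38.p14, plus strand, written 5′ to 3′), at chr9:5450292-5450541 for CD274, chr19:44643660-44643909 for PVR and chr1:2556121-2556370 for TNFRSF14. Capitals mark the motif, for CD274 both of its overlapping matches.
CD274: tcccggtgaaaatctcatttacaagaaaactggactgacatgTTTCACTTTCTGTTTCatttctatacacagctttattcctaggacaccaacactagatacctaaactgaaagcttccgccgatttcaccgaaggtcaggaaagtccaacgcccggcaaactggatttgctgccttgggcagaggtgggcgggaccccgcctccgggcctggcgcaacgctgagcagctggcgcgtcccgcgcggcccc
PVR: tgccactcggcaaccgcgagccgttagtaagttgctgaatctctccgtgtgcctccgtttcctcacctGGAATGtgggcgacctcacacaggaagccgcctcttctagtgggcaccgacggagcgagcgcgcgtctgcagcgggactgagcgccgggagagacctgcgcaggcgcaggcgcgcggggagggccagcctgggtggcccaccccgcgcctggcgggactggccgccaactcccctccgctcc
TNFRSF14: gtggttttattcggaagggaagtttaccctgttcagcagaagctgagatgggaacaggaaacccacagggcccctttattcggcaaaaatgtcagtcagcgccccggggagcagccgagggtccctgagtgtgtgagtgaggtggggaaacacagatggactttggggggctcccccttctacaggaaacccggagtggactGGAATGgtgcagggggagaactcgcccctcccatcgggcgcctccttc

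RefSeq windows of 250 bases before to 50 after the start were searched on both strands for 9 of the 10 genes (10 windows, with more than 1 for CD276), and PDCD1LG2 was not matched. The TEAD core CATTCC was found in PVR, 182 bases before the start, and in TNFRSF14, 48 bases before the start, and it is present in 14.0% of the 35116 RefSeq windows. The interferon response element (GAAA, any 2 bases, then GAAA again) was found in CD274, in 2 overlapping matches 208 and 202 bases before the start, and in LGALS9, 9 bases before the start, against 3.57% of all windows. The AP-1 motif TGANTCA was found in ULBP2, 2 bases before the start (7.71% of all windows), and the NF-kB consensus in TNFRSF14, 84 bases before the start (5.91%). A match describes letters and is neither a binding site nor a cause, and nothing about a factor follows from a window without one.

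YAP-2SA cells had higher PD-L1 and PD-L2 transcripts than any other population. Of the 9 genes tested, CD274 was called upregulated, and so was PDCD1LG2, whose entry into the test required high YAP-2SA values, in YAP-2SA cells compared to Control (limma, Benjamini-Hochberg adjusted p under 0.05 and a ratio of mean FPKM over 2), against 7.59% of all 15055 loci called in that direction and 15.5% in either. Without the fold requirement 5 genes were higher, CD274, PDCD1LG2, PVR, ICAM1 and MICA, and CD47 was lower, against 22.9% of loci higher and 19.5% lower. The median difference of the 9 genes was 0.40 on the log2(FPKM + 1) scale against 0.01 over all loci, and since PDCD1LG2 had to be high in YAP-2SA to enter, neither its call nor the count or median is used as support. CD276, TNFRSF14 and ULBP2 did not pass the test in any comparison.

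**Figure D1:**
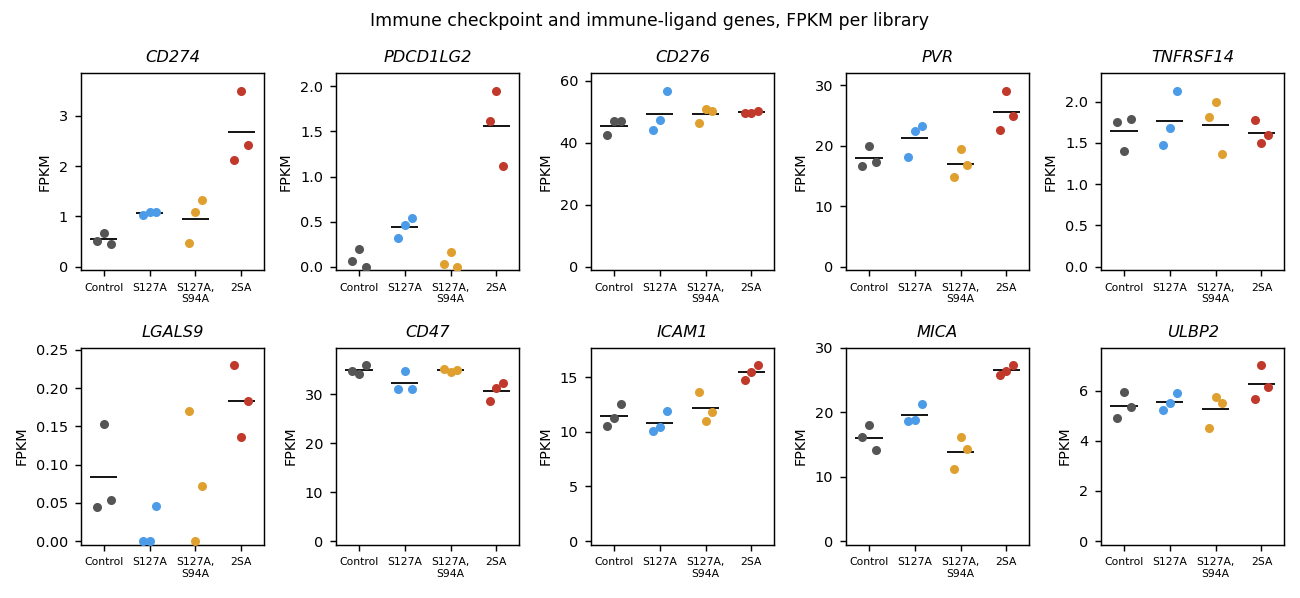
FPKM of each of the 10 genes (linear axes from 0) by population, with 1 point per library and a line at the group mean, omitted where a library is at 0. CD274 and PDCD1LG2 in the 3 YAP-2SA libraries lie above all other 9 libraries, while CD276, TNFRSF14 and ULBP2 overlap between populations in most pairs.

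CD274 encodes PD-L1 and lies on chromosome 9 at 5450503 to 5470566 (GRCh37, plus strand). Its level was 0.51, 0.676 and 0.446 FPKM in Control, 1.02, 1.08 and 1.08 FPKM in YAP-S127A, 0.473, 1.08 and 1.32 FPKM in YAP-S127A,S94A, and 2.12, 3.5 and 2.43 FPKM in YAP-2SA. All 3 YAP-2SA libraries were above the other 9, YAP-S127A lay above Control without overlap, and YAP-S127A,S94A spanned both. The mean in YAP-2SA was 2.68 ± 0.723 FPKM and that in Control 0.544 ± 0.119 FPKM (SD, n = 3), a ratio of 4.93, with a difference of 1.24 ± 0.18 (SE) on the log2(FPKM + 1) scale and an adjusted p of 0.000217 in limma. That scale understates changes of genes with levels this low. Without the library labelled Control replicate 3 the difference was 1.19, with an adjusted p of 0.00135.

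PD-L1 transcripts also differed between the mutants. The YAP-2SA mean was 2.53 times that of YAP-S127A (adjusted p = 0.0048) and 2.80 times that of YAP-S127A,S94A (adjusted p = 0.00162). YAP-S127A had 1.95 times the Control mean, which did not pass adjustment (limma adjusted p = 0.222). The YAP-S127A,S94A mean was 1.76 times Control, with an interval of the difference from -0.07 to 0.71 and an adjusted p of 1. Between YAP-S127A and the same protein with S94A, CD274 did not differ detectably (difference 0.10, interval -0.29 to 0.49, adjusted p = 0.789), so no effect of the TEAD-binding mutation on CD274 was detectable at the YAP-S127A level.

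PDCD1LG2 encodes PD-L2 and starts 39964 bases downstream of the end of CD274, at 5510531 to 5571282 on the same strand. Its level was 0.0614, 0.191 and 0 FPKM in Control, 0.316, 0.466 and 0.538 FPKM in YAP-S127A, 0.0331, 0.163 and 0 FPKM in YAP-S127A,S94A, and 1.62, 1.95 and 1.12 FPKM in YAP-2SA. The YAP-S127A libraries lay above every Control and every YAP-S127A,S94A library, and the YAP-2SA libraries above all others. The lowest YAP-2SA library was 5.85 times the highest Control library, 2.08 times the highest YAP-S127A library and 6.85 times the highest YAP-S127A,S94A library. Differences of YAP-2SA were 1.23 ± 0.14 (SE) from Control, 0.82 from YAP-S127A and 1.26 from YAP-S127A,S94A on the log2(FPKM + 1) scale, but the filter that admitted PDCD1LG2 used these same libraries. Testing all 23437 loci with any value above 0, an entry rule that does not favor a population, gave limma adjusted p-values of 2.86e-05, 0.000781 and 2.35e-05.

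For YAP-S127A the PD-L2 differences did not pass adjustment. They were 0.41 against Control (limma adjusted p = 0.111 over all loci above 0) and 0.43 against YAP-S127A,S94A (adjusted p = 0.0671). YAP-S127A,S94A and Control overlapped, with a difference of -0.02 and an interval from -0.33 to 0.28. Leaving out any YAP-2SA library left only 2 libraries at 1 FPKM and took PDCD1LG2 out of the test.

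Besides PDCD1LG2, a list of PD-L1 stabilizers and of 9p24 neighbors of CD274 had 8 tested loci, with 0 at the fold threshold and 1 higher and 1 lower by the adjusted p alone in YAP-2SA against Control. Of all loci, 15.5% were called at the fold threshold, and 22.9% were higher and 19.5% lower by the adjusted p alone. CMTM6, a membrane protein that protects PD-L1 from degradation, was lower in YAP-2SA (30.5, 31.0 and 34.0 FPKM) than in Control (41.3, 48.0 and 44.2 FPKM), a ratio of 0.716 with an adjusted p of 0.000335. Its related protein CMTM4 was higher, 6.57 ± 1.34 against 4.44 ± 0.615 FPKM (SD, n = 3), with a ratio of 1.48 and an adjusted p of 0.0178 in limma. JAK2, the interferon receptor kinase encoded in the same region, was at 2.58 FPKM in YAP-2SA and 2.43 FPKM in Control (adjusted p = 0.738). The CMTM6 gene overlaps CMTM7 on the other strand, so reads of that pair may not be separable.

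CD276 (B7-H3) is a B7 family protein that is abundant on many tumors. Its mean level was 45.5 ± 2.52 FPKM in Control, 49.4 ± 6.6 FPKM in YAP-S127A, 49.2 ± 2.48 FPKM in YAP-S127A,S94A and 49.9 ± 0.378 FPKM in YAP-2SA (SD, n = 3). It was the highest of the 10 genes in each population on this per-length scale, and its YAP-2SA libraries (49.7, 49.7 and 50.3 FPKM) lay just above Control (42.6, 47.0 and 46.9 FPKM). The difference from Control was 0.13 with an interval from -0.06 to 0.32 (adjusted p = 0.239). TNFRSF14 (HVEM), the ligand of BTLA and CD160, was at 1.75, 1.4 and 1.79 FPKM in Control and 1.78, 1.5 and 1.59 FPKM in YAP-2SA, which overlapped. Its difference was -0.01, with an interval from -0.28 to 0.26, and its promoter holds the TEAD core shown above.

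LGALS9 encodes galectin-9, a ligand of TIM-3 (HAVCR2). It never exceeded 0.23 FPKM and was at 0 in 3 of 12 libraries, 2 of YAP-S127A and 1 of YAP-S127A,S94A. Its 3 YAP-2SA values were 0.23, 0.136 and 0.183 FPKM and its Control values 0.0446, 0.153 and 0.0534 FPKM, so the groups overlapped and no test was made.

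**Figure D2:**
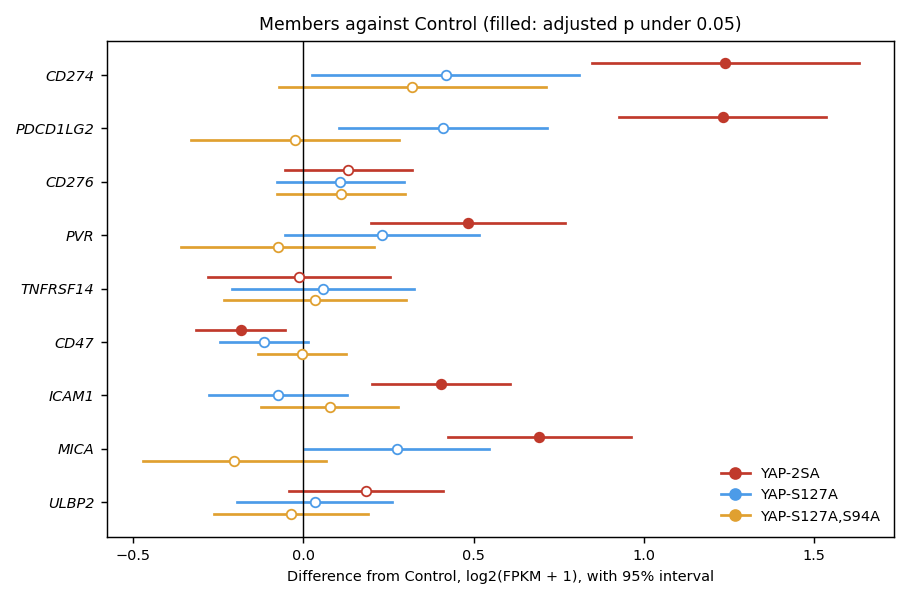
Difference from Control on the log2(FPKM + 1) scale for the 9 tested genes (points, filled where the adjusted p is under 0.05) with 95% intervals (bars), for the 3 YAP populations. CD274 and PDCD1LG2 in YAP-2SA lie near 1.24 and 1.23, CD47 lies below 0 at -0.18, and no YAP-S127A or YAP-S127A,S94A point is filled.

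PVR (CD155), on chromosome 19 at 45147098 to 45169430 (GRCh37), is a nectin-like adhesion protein. Its level was 16.6, 20.0 and 17.3 FPKM in Control, 18.2, 22.4 and 23.3 FPKM in YAP-S127A, 14.9, 19.4 and 16.8 FPKM in YAP-S127A,S94A, and 22.6, 29.1 and 24.9 FPKM in YAP-2SA. The YAP-2SA libraries were above all Control and YAP-S127A,S94A libraries and overlapped YAP-S127A. The YAP-2SA mean was 1.42 times Control (difference 0.48, adjusted p = 0.011) and 1.5 times YAP-S127A,S94A (adjusted p = 0.00485), and its difference of 0.25 from YAP-S127A did not pass (interval -0.03 to 0.54, adjusted p = 0.163). YAP-S127A and Control overlapped, with a difference of 0.23 and an adjusted p of 0.367. PVR overlaps CEACAM19 on the same strand, and reads of that stretch may be shared.

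NECTIN2, a second ligand of the same receptor group (of TIGIT and CD226), changed more. It was at 10.3, 8.52 and 12.3 FPKM in Control, 20.5, 18.2 and 20.8 FPKM in YAP-S127A, 8.94, 9.03 and 9.49 FPKM in YAP-S127A,S94A and 44.3, 41.3 and 46 FPKM in YAP-2SA. Groups separated in the order YAP-2SA, YAP-S127A and then the other two, which overlapped. The YAP-2SA mean was 4.24 times Control (adjusted p = 1.05e-07) and 2.21 times YAP-S127A (adjusted p = 1.83e-05), and the YAP-S127A mean was 2.17 times that of YAP-S127A,S94A (adjusted p = 0.000148 in limma).

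Of the receptors for PVR, TIGIT was at 0 in 11 libraries, CD226 did not exceed 0.153 FPKM, and CD96 was abundant in the melanoma cells. CD96 is best known on T and NK cells, and was at 74.4, 83.2 and 82.3 FPKM in Control, 60.8, 64.2 and 66.7 FPKM in YAP-S127A, 77.2, 80.1 and 80.2 FPKM in YAP-S127A,S94A and 4.91, 5.44 and 4.98 FPKM in YAP-2SA. It thus moved opposite to PVR, and Control was 15.6 times YAP-2SA (adjusted p = 3.66e-11) and 1.25 times YAP-S127A (adjusted p = 0.00865). CD96 is overlapped on the other strand by ZBED2, which the table lists as its own locus at no more than 0.225 FPKM, and by a NECTIN2 pseudogene, and reads of overlapping genes may not be separable. PTPRC (CD45), carried by leukocytes, did not exceed 0.0119 FPKM in any library.

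**Figure D3:**
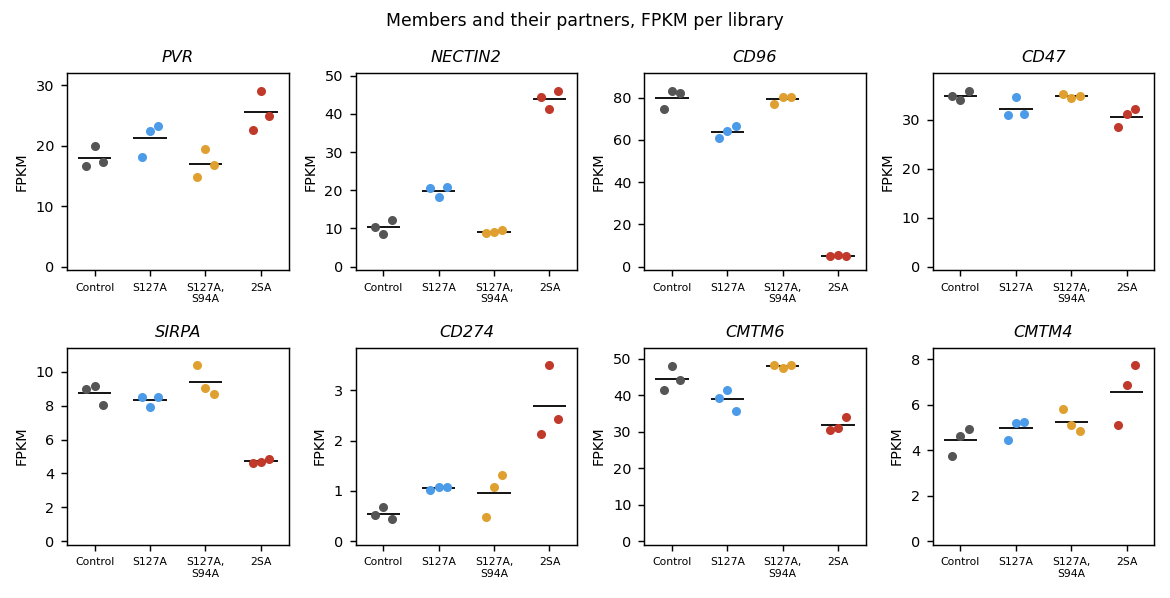
FPKM per library (linear axes from 0, points, with a line at the group mean) of PVR, NECTIN2, CD96, CD47, SIRPA, CD274, CMTM6 and CMTM4 in the 4 populations. NECTIN2 was 43.9 FPKM in YAP-2SA against 10.4 FPKM in Control on average, while CD96 was 5.11 against 80.0 FPKM.

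CD47, on chromosome 3 at 107761938 to 107810709 (GRCh37, minus strand), was slightly lower in YAP-2SA. Its level was 34.8, 34.1 and 35.9 FPKM in Control, 31.0, 34.6 and 31.1 FPKM in YAP-S127A, 35.2, 34.4 and 34.9 FPKM in YAP-S127A,S94A, and 28.5, 31.2 and 32.2 FPKM in YAP-2SA. The YAP-2SA libraries lay below Control and YAP-S127A,S94A and overlapped YAP-S127A. The ratio to Control was 0.878 (difference -0.18, adjusted p = 0.0268), and without Control replicate 1, the library labelled Control replicate 3 or YAP-2SA replicate 1 the adjusted p was 0.0569, 0.083 and 0.106, and the call was lost in each. Against YAP-S127A,S94A the adjusted p was 0.029, and 5 of the 6 single omissions among these libraries ended the call. SIRPA, the receptor of CD47, was lower in YAP-2SA (4.63, 4.68 and 4.83 FPKM) than in Control (8.99, 9.14 and 8.05 FPKM) with an adjusted p of 1.16e-05, while QPCTL, which modifies CD47 for SIRPA binding, had a ratio of 0.987 (adjusted p = 0.887).

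THBS1, a secreted ligand of CD47 and a widely used YAP target, was at 152, 97.0 and 97.6 FPKM in Control, 222, 146 and 187 FPKM in YAP-S127A, 75.3, 88.8 and 76.4 FPKM in YAP-S127A,S94A and 293, 157 and 231 FPKM in YAP-2SA. The YAP-S127A and YAP-2SA libraries were above those with S94A without overlap. YAP-S127A was 2.31 times YAP-S127A,S94A (adjusted p = 0.0118 in limma), and YAP-2SA 1.97 times Control (adjusted p = 0.00919).

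ICAM1, the adhesion ligand of the leukocyte integrin LFA-1 (ITGAL with ITGB2), is on chromosome 19 at 10381769 to 10397291 (GRCh37). It was at 10.5, 11.3 and 12.5 FPKM in Control, 10.1, 10.4 and 11.9 FPKM in YAP-S127A, 13.6, 11 and 11.8 FPKM in YAP-S127A,S94A, and 14.7, 15.5 and 16.1 FPKM in YAP-2SA. Only the YAP-2SA libraries stood apart, above all other 9. The YAP-2SA mean was 1.35 times Control (difference 0.40, adjusted p = 0.00463), 1.43 times YAP-S127A (adjusted p = 0.00236) and 1.27 times YAP-S127A,S94A (adjusted p = 0.0143). The YAP-S127A mean was 0.945 times Control, with a difference of -0.08 and an interval from -0.28 to 0.13. The difference of YAP-2SA from YAP-S127A,S94A no longer passed when YAP-S127A,S94A replicate 2 was dropped (limma adjusted p = 0.0578) or YAP-2SA replicate 3 (0.053). Of the integrin subunits, ITGAL did not exceed 0.153 FPKM, while ITGB2 was at 0.138, 0.119 and 0.54 FPKM in Control and 3.51, 4.5 and 3.7 FPKM in YAP-2SA (adjusted p = 1.56e-06). ITGB2 reached the level needed for a test only through its YAP-2SA libraries, so that call is a description.

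MICA lies in the MHC region of chromosome 6 at 31367561 to 31383092 (GRCh37), and the table combines it with its close paralog MICB in 1 locus, so the 2 cannot be separated. Of 5 loci listing them, 4 were at 0 in all libraries. The locus was at 16.1, 18.0 and 14.1 FPKM in Control, 18.6, 18.8 and 21.3 FPKM in YAP-S127A, 11.2, 16.1 and 14.3 FPKM in YAP-S127A,S94A, and 25.7, 26.4 and 27.3 FPKM in YAP-2SA. The populations were ordered YAP-2SA, YAP-S127A and then the overlapping Control and YAP-S127A,S94A, with no overlap between these 3 steps. The YAP-2SA mean was 1.65 times Control (difference 0.69 ± 0.12, SE, adjusted p = 0.000912) and 1.90 times YAP-S127A,S94A (adjusted p = 0.000142), and the YAP-S127A difference of 0.28 from Control did not pass (adjusted p = 0.243).

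MICA was the single gene of the 9 past adjustment between YAP-S127A and YAP-S127A,S94A, with a ratio of 1.41 and an adjusted p of 0.0314, against 6.36% of all loci higher at adjusted p under 0.05. That difference no longer passed without any of the 3 YAP-S127A libraries or without YAP-S127A,S94A replicate 1 or 3, where the adjusted p was 0.0553 to 0.0997. Its YAP-2SA to YAP-S127A ratio was 1.35 (adjusted p = 0.023), and 0.0568 to 0.0722 without YAP-S127A replicate 1 or 2 or YAP-2SA replicate 2 or 3. ULBP2, the other NKG2D ligand of the set, on chromosome 6 at 150263150 to 150270371, was at 4.9, 5.94 and 5.35 FPKM in Control and 5.68, 7.02 and 6.13 FPKM in YAP-2SA, which overlapped. Its difference was 0.18, with an interval from -0.04 to 0.41 and an adjusted p of 0.175. Among further NKG2D ligands, 3 loci were tested in YAP-2SA against Control. By the adjusted p alone 0 were higher and 2 lower, against 22.9% and 19.5% of all loci. ULBP3 fell from 4.88 to 3.67 FPKM (limma adjusted p = 0.0126) and RAET1L from 1.1 to 0.702 FPKM (0.0462). RAET1L reached 1 FPKM in no YAP-2SA library, so its adjusted p is a description. NKG2D itself (the KLRK1 locus) did not exceed 0.556 FPKM.

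Read across populations, YAP-S127A cells had no member called against Control, with 3 of 9 genes at an unadjusted limma p under 0.05 (CD274, PDCD1LG2 and MICA) against 19.6% of all loci, while 2.47% of loci were called at the fold threshold and 6.31% passed adjustment alone. YAP-S127A,S94A cells had none called, against 0.173% of loci called and 0.179% past adjustment alone, and 0 of 9 at an unadjusted p under 0.05, against 4.39% of loci. Between YAP-2SA and YAP-S127A, CD274 and PDCD1LG2 were called upregulated (5.17% of loci higher) and ICAM1 and MICA passed the adjusted p alone (18.3% of loci higher). Between YAP-2SA and YAP-S127A,S94A 2 genes were called, again CD274 and PDCD1LG2 (7.81% of loci higher), and by the adjusted p alone 5 were higher and CD47 lower (23.2% of loci higher and 20.3% lower). Between YAP-S127A and YAP-S127A,S94A no gene was called at the fold threshold (3.49% of loci). The calls of PDCD1LG2 are descriptions, for its entry into the test, and these comparisons share libraries and are not independent of each other.

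The 11 lists of related immune genes held 77 tested loci besides the 9. In YAP-2SA compared to Control, 8 were upregulated and 5 downregulated, 16.9% of them, close to the 15.5% of all loci. By the adjusted p alone 24 were higher and 18 lower, 54.5%, against 42.3% of all loci. Among the upregulated loci, ITGB2, CD24 and HCST entered the test only through their YAP-2SA libraries. Neither their calls nor these counts are used as support. Beyond NECTIN2, ITGB2 and CD96, further called genes were TNFSF18, CD24 and TNFAIP3. TNFSF18 (GITR ligand, a T-cell costimulator) was at 0.163, 0 and 0.213 FPKM in Control, 1.16, 2.55 and 2.31 FPKM in YAP-S127A and 18.2, 39.3 and 27.6 FPKM in YAP-2SA, with adjusted p-values against Control of 0.00843 and 1.31e-07. These 3 groups did not overlap, and YAP-S127A,S94A (0.0246, 0.131 and 0 FPKM) overlapped Control. TNFSF18 reached 1 FPKM only in YAP-S127A and YAP-2SA libraries, so its adjusted p-values are descriptions too.

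CD24, a ligand of the macrophage receptor Siglec-10 with near-identical copies elsewhere in the genome that make its value uncertain, averaged 9.56 ± 1.15 FPKM in YAP-2SA and 0.366 ± 0.25 FPKM in Control (SD, n = 3, adjusted p = 2.87e-08). VSIR (VISTA, an inhibitory B7 relative) was 3.57 times Control in YAP-2SA (adjusted p = 2.97e-05). ALCAM, the ligand of CD6, was 9.27 times Control, at 36.7 against 3.96 FPKM (adjusted p = 1.98e-08), whereas CD58, the ligand of CD2, was 0.379 times Control, at 12.2 against 32.2 FPKM (adjusted p = 4.08e-06). HCST, the signaling adaptor of NKG2D, rose from 0.438 to 3.33 FPKM (adjusted p = 0.00015), and CADM1, a ligand of CRTAM, fell from 26.9 to 8.91 FPKM (adjusted p = 4.05e-07). For CD24 and HCST the adjusted p-values are descriptions, since both had to be high in YAP-2SA to be tested. CTLA4, an inhibitory T-cell receptor, was at 1.58, 0.731 and 1.51 FPKM in Control and 0, 0.0958 and 0 FPKM in YAP-2SA (adjusted p = 0.00155). CTLA4 entered the test only through libraries of the other populations, at values near 1 FPKM, so its adjusted p is a description as well. PDCD1, the receptor of PD-L1 and PD-L2, was listed at 0 in all 12 libraries.

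**Figure D4:**
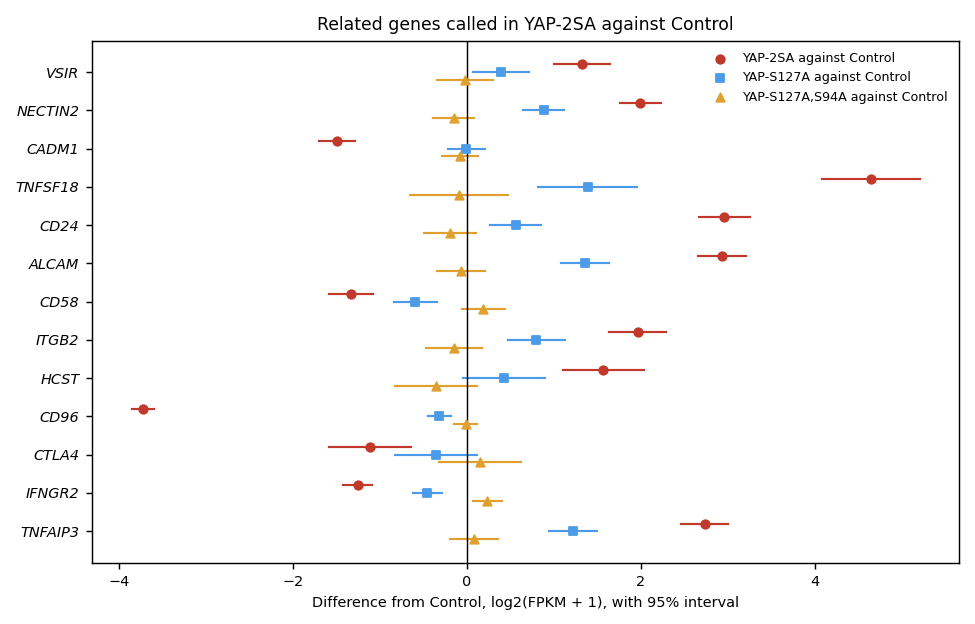
Difference from Control on the log2(FPKM + 1) scale, with 95% intervals, for the 13 related genes called in YAP-2SA against Control, in each YAP population. TNFSF18 lies highest at 4.65 and CD96 lowest at -3.73 in YAP-2SA, and YAP-S127A,S94A points lie between -0.36 and 0.23. ITGB2, CD24 and HCST entered the test only through their YAP-2SA libraries. TNFSF18 reached 1 FPKM only in YAP-S127A and YAP-2SA libraries, and CTLA4 in no YAP-2SA library.

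In the interferon-gamma pathway, 12 loci were tested and 1 was called, IFNGR2, the second chain of the receptor, which was 0.408 times Control in YAP-2SA (21.3 against 52.2 FPKM, adjusted p = 2.55e-07). Past the adjusted p alone were 6 higher and 2 lower loci, among them IRF1, an interferon-induced transcription factor that binds such response elements, at 11.5 ± 1.28 against 6.45 ± 0.294 FPKM (SD, n = 3, adjusted p = 0.0034), which was chosen for mention after its values were seen. In the NF-kB pathway, 12 loci were tested and TNFAIP3, an inhibitor and target of NF-kB, was called, at 16.2, 14.5 and 11.7 FPKM in YAP-2SA against 1.25, 1.2 and 1.33 FPKM in Control (adjusted p = 2.97e-08). By the adjusted p alone 3 NF-kB loci were higher, TNFAIP3, NFKB2 (22.4 to 27.2 FPKM) and IKBKB (9.42 to 11.6 FPKM). The 2 lower were NFKB1 (24.5 to 13.7 FPKM) and RELB (6.78 to 4.03 FPKM). NFKB1, RELB and NFKB2 are subunits of NF-kB, so subunits moved in both directions. These loci were named after their values were seen. Over all loci 15.5% were called and 42.3% passed the adjusted p alone.

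The loci whose pattern over the 12 libraries was most like CD274 were PCBD1 (Pearson r = 0.973), a locus named only by an mRNA accession (0.972) and GALNT12 (0.971), of 13495 loci with a gene symbol. For PDCD1LG2 they were RCN3 (0.992), RAB3IL1 (0.991) and the MYL6 and MYL6B locus (0.986). These values describe likeness across 4 populations that differ from each other, with n = 12 libraries.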

How the data were processed

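RNA-seq of 12 A375 libraries was analysed. The authors aligned reads to hg19 with the UCSC known genes (Bowtie2 2.0.0, TopHat2 2.0.4, Cufflinks 2.0.2 in the submitters' processing notes) and deposited log2(FPKM + 1) values per locus. From 31588 entries 3 identical ones were removed. Depth per library is not given: read steps could not be recovered, FPKM sums were 790865 to 901558, and precision rests on the spread between the 3 libraries. The stated kit and counting do not give strand use, and 6 of the 10 genes are overlapped by a gene on the other strand in GENCODE (GRCh37), so such reads may be shared. Values were back-transformed to FPKM, and limma 3.58.1 in R 4.3.3, with an intensity trend, was fitted to log2(FPKM + 1), a pseudocount of 1, in all 12 libraries with 1 mean per group (8 residual degrees of freedom) for loci at FPKM 1 or more in at least 3 libraries (15055). P-values were adjusted over all of them by Benjamini-Hochberg. An exact permutation test of 3 against 3 libraries cannot go below 0.1. The fit was tested on simulated data, where 193 of 200 changed loci were called in the right direction. The changed loci had Control levels above those of CD274 and PDCD1LG2, so levels that low were not covered. Named genes were YAP1, the 10 genes, called genes and partners from related lists, and the 3 most similar loci. Members and lists were chosen with earlier results of these data known. Alternatives varied pseudocount, filter, scaling, variance model, thresholds, libraries and pairing. Figures used Python and matplotlib.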

Additional observations from a re-analysis of the deposited data

How the results depend on the processing

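Of 1260 values of single genes under the alternatives, 1228 stayed on the same side of adjusted p under 0.05, 6 passed and 26 lost it. Of the values past it in neither fit 34 changed sign, while none past it in either fit did. With a mean FPKM of at least 5 required, 0 genes were called in YAP-2SA against Control, YAP-S127A and YAP-S127A,S94A, since CD274 and PDCD1LG2 are then not tested, and 8 related genes in place of 13. Without a fold threshold the counts were 6, 4, 6 and, for YAP-S127A against YAP-S127A,S94A, 1, with 42 related genes. With a difference over 1 on the log2(FPKM + 1) scale they were 0 against YAP-S127A and 1 against YAP-S127A,S94A. With log2(FPKM + 0.1) PDCD1LG2 was called in YAP-S127A against YAP-S127A,S94A, 1 in place of 0. Leaving out each library gave 1 to 2 calls for YAP-2SA against Control and against YAP-S127A, and 1 to 3 against YAP-S127A,S94A, where MICA exceeded the fold threshold without YAP-S127A,S94A replicate 2 (the count was 1 without any YAP-2SA library, when PDCD1LG2 falls under the filter, but 2 with the tested loci held fixed, an alternative chosen after seeing the data that keeps the selection of PDCD1LG2 by its YAP-2SA values) and 0 to 1 for YAP-S127A against YAP-S127A,S94A. Over all tested loci, same-numbered libraries did not pair (r of 18 pairs from -0.149 to 0.163, 5 of 12 libraries closest to their own number). For PVR and ULBP2, however, replicate 1 was the lowest library of each population. With replicate number as a block the counts stayed at 2 for the YAP-2SA comparisons, PVR passed against YAP-S127A (adjusted p = 0.0158) and in YAP-S127A against YAP-S127A,S94A (0.0188), and ULBP2 passed in YAP-2SA against YAP-S127A,S94A (0.0266). The unknown depth limits CD274, PDCD1LG2 and LGALS9 most, since their levels are near or under 1 FPKM in most libraries.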
